A study of Mus musculus with 2 samples.

Results

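Kainate receptors are glutamate-gated ion channels, and 7 genes encode their parts in the mouse. They are Grik1, Grik2 and Grik3 for the low-affinity subunits, Grik4 and Grik5 for the high-affinity subunits, and Neto1 and Neto2 for the auxiliary proteins. These genes were taken by name from the 21938 protein-coding genes of the GENCODE M21 annotation outside the mitochondrial chromosome, and the rule uses no measured value. Open chromatin was mapped with DNase-seq, in which the nuclease DNase I cuts DNA where it is not covered by nucleosomes. The single group held 2 libraries, replicate 1 and replicate 2, of hippocampus from female B6CASTF1/J mice aged 25 days, hybrids of a laboratory strain and a wild-derived strain. The labels gave no other strain, treatment or allele, and called the tissue type a layer of the hippocampus without naming the layer. The libraries carry separate biosample entries and one donor entry, and part of the spread between them may be technical. With 1 group there was no contrast between conditions and no test, and every value below is a description of these libraries.

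The low-affinity subunits can form channels by themselves, whereas the high-affinity subunits reach the cell surface and function only together with a low-affinity partner. Neto1 and Neto2 are transmembrane proteins that bind the channels and change their gating, affinity and placement. In the hippocampus kainate receptors are best known from the synapses of mossy fibres, where they act on both sides of the synapse, and from interneurons. In bulk tissue, fewer cells with open chromatin at a gene and less access per cell cannot be told apart.

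Sequences of 9 shared open regions are printed, so that the footprints can be read beside the signals. They are promoter regions of Grik2 and Grik4 that held shared footprints, and distal regions of 5 of the genes. The distal ones had the highest mean percentiles of signal over the 2 libraries within their own gene, with several printed for Grik5. By replicate 1 signal alone the Neto2 region beyond the 3′ end was higher than the printed one, at 3.75 against 2.84. The printed distal regions of Grik1 and Neto2 stood near the middle of all shared regions, at mean percentiles of 52.5 and 59.7. All were read from the GRCm38.p6 (mm10) reference of RefSeq, 5′ to 3′ on the strand of the gene, so they do not show the alleles of the mice. Capitals mark footprints, short stretches called as protected from DNase I cutting inside an open region, that both libraries called at overlapping positions. The capitals in the 3′ flank of Grik5 include an unbroken run of G, and whether that stretch was protected was not tested.
Grik2 region upstream of the outermost start, chr10:49788767-49788920, minus strand: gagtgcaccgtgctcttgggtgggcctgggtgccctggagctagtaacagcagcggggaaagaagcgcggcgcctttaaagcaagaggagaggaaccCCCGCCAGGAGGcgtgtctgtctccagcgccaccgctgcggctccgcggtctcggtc
Grik4 upstream promoter region, chr9:42944821-42945040, minus strand: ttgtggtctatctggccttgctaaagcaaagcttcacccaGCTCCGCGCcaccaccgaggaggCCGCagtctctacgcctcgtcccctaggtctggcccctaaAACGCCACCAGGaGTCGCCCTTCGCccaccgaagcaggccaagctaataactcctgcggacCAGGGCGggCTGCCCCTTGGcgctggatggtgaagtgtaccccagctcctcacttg
Grik1 intron 1 region, chr16:88204521-88204700, minus strand: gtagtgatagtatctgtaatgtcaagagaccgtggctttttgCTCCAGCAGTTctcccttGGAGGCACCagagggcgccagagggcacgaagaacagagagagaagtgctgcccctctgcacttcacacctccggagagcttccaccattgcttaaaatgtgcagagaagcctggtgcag
Grik3 intron 13 region, chr4:125702981-125703200, plus strand: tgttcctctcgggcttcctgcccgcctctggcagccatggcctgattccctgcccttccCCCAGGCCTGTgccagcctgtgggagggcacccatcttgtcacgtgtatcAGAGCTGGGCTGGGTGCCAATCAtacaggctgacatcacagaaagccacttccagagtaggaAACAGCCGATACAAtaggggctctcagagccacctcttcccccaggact
Grik4 exon 15 region, chr9:42550261-42550460, minus strand: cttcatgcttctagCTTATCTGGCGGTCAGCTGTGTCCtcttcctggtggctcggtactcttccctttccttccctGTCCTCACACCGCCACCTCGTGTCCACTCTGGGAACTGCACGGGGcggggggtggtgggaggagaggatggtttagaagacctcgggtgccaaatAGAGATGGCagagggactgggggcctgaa
Grik5 intron 12 region nearer the start, chr7:25036041-25036240, minus strand: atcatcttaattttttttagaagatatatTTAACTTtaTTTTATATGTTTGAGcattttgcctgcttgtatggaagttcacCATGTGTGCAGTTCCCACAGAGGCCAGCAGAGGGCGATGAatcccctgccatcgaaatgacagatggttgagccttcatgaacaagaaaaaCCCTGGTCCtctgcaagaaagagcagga
Grik5 intron 12 region farther from the start, chr7:25030199-25030360, minus strand: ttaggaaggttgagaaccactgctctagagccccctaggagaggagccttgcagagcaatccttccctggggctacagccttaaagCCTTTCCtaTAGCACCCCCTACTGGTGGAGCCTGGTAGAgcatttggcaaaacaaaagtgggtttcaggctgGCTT
Grik5 region in the 3′ flank, chr7:24965261-24965460, minus strand: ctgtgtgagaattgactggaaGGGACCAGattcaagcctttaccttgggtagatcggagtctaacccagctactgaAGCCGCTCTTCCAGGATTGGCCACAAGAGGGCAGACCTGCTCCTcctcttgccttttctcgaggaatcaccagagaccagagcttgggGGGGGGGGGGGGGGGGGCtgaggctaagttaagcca
Neto2 intron 1 region, chr8:85699161-85699340, minus strand: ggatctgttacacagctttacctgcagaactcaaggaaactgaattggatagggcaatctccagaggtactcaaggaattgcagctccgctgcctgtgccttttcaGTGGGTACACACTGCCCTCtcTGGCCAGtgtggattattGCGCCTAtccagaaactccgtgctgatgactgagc

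Open promoters were found at 4 of the 7 kainate receptor genes in both libraries, namely Grik1, Grik2, Grik4 and Neto2. A promoter was called open where a peak of the shorter of the library's 2 deposited peak lists lay within 500 bp of any annotated transcript start. The shorter lists hold 61466 peaks in replicate 1 and 50379 in replicate 2, and the longer ones 104506 and 91751. Over all protein-coding genes 54.2% were open in both libraries, so the count of 4 of 7 lies near the background. Replicate 1 had a promoter peak at 7 of the 7 genes, against 60.2% of all genes. Replicate 2 had one at 4 of the 7, against 54.8% of all genes. Grik3, Grik5 and Neto1 had a peak in replicate 1 alone, 3 of 7 against 6.00% of all genes. In the longer peak lists 6 of the 7 were open in both libraries, against 59.7% of all genes, and Grik5 was the exception.

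Among the low-affinity subunits, Grik2, which encodes GluK2, had the strongest promoter peak. Signal below is the value the authors gave each peak, on a scale that the sources used here do not state, and a gene's promoter signal is that of its highest peak. The median over genes with a promoter peak was 3.93 in replicate 1 (13206 genes) and 1.79 in replicate 2 (12014 genes), so values are compared within a library. Grik2 (chr10:49094833-49788766, minus strand) had a signal of 3.84 in replicate 1 and 1.81 in replicate 2. These values stood at percentiles 48.6 and 51.1 of the genes with a peak, in the middle of the range in both libraries. Grik1 (chr16:87895900-88290265, minus strand), which encodes GluK1, had a signal of 0.978 in replicate 1 and 0.435 in replicate 2, at percentiles 6.98 and 1.72. It was the weakest of the 4 genes open in both libraries. Grik3 (chr4:125490700-125714173, plus strand), which encodes GluK3, had a signal of 1.19 in replicate 1, at percentile 10.9, and no peak in the shorter list of replicate 2. The longer list of replicate 2 held a peak of signal 0.593 there.

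The high-affinity subunits differed from each other. Grik4 (chr9:42518135-42944493, minus strand), which encodes GluK4, had a signal of 6.47 in replicate 1 and 1.66 in replicate 2, at percentiles 79.5 and 45.1. It was the highest of the 7 genes in replicate 1, while Grik2 was the highest in replicate 2. The Grik4 values came from a peak 348 to 527 bp upstream of the start in replicate 1 and 328 to 547 bp in replicate 2. With a promoter window of 250 bp Grik4 had 3.49 and 1.09, below Grik2 at 3.84 and 1.81 in both libraries. The order of this pair therefore depended on the window. Grik5 (chr7:25009849-25072346, minus strand), which encodes GluK5, had a signal of 1.10 in replicate 1, at percentile 9.26, and no promoter peak in either list of replicate 2. Its only peak of the shorter list was 80 bp wide and lay 395 to 474 bp upstream of the outermost start.

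Of the auxiliary genes, Neto2 (chr8:85636588-85700924, minus strand) was open in both libraries, with a signal of 2.55 in replicate 1 and 0.773 in replicate 2, at percentiles 30.9 and 11.5. Neto1 (chr18:86394952-86506718, plus strand) had a signal of 1.43 in replicate 1, at percentile 14.6, and no peak in the shorter list of replicate 2. Replicate 1 nevertheless placed 4 peaks of the shorter list in the Neto1 promoter windows, between 658 bp upstream and 1147 bp downstream of the outermost start. The longer list of replicate 2 placed 4 peaks there, with signals of up to 0.668.

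**Figure D1:**
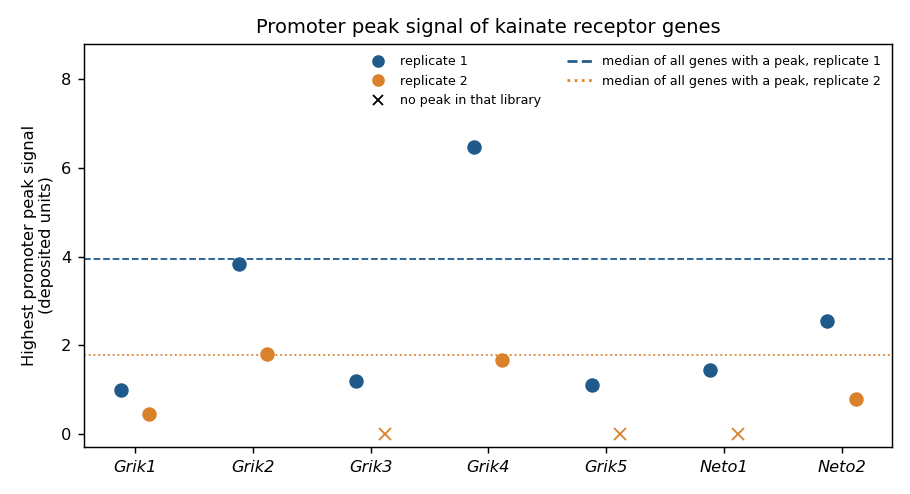
Highest promoter peak signal (deposited units, y axis) of each kainate receptor gene (x axis) in replicate 1 and replicate 2, with crosses at 0 where a library had no peak in its shorter list. The dashed and dotted lines are the medians over all genes with a peak in that library, 3.93 and 1.79; in replicate 1 Grik4 alone stood above its line, and in replicate 2 Grik2 alone.

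The FDR of the cut rate per base shows how far the genes with a peak in 1 library stood from the threshold in the other. Every shorter-list peak around the 7 genes held a base at an FDR of at most 0.001, 73 of 73 peaks in replicate 1 and 48 of 48 in replicate 2. Every longer-list peak held one at an FDR of at most 0.05, 126 of 126 peaks and 103 of 103 peaks. In replicate 2 the lowest FDR in the Grik3 promoter window was 0.00179, with 126 bases at an FDR of at most 0.05. In the Neto1 windows the lowest was 0.00403, with 886 such bases. Both genes therefore lay between the thresholds of 0.001 and 0.05. In the Grik5 windows 0 of 4249 bases reached 0.05 in replicate 2, while replicate 1 had 410 such bases and a lowest FDR of 4.70e-06.

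Genes with a weak promoter peak in replicate 1 often had none in replicate 2. Grik5 and Grik1 lay in the lowest 10% of replicate 1 promoter signals, of up to 1.14, where 56.2% of 1307 genes had no replicate 2 peak. Grik3 and Neto1 lay in the next 10%, of up to 1.76, where 27.8% of 1320 genes had none. Neto2, Grik2 and Grik4 lay in higher groups of 10%, in which 3.04%, 1.29% and 0.0760% of genes had none. The depth of the libraries is unknown, and its part in these differences was not tested.

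The promoters also differed in how many of their annotated starts were open. The 7 genes have 36 distinct starts, and 14 of these had a peak of both libraries within 500 bp. The share over all annotated starts is not given here, so this count has no background. Grik1 had 7 open starts of 10, all within 401 bp of the outermost one. The Grik1 starts 234089 and 366434 bp inside the gene had no peak of the shorter list in either library. Grik4 had 1 open start of 2, and the other one, which lies 135794 bp inside the gene, had no peak of the shorter list. Neto2 had 2 open starts of 4, at 0 and 170 bp, and its starts 9915 and 9951 bp inside the gene were not open. The starts at 366434 bp in Grik1 and 9915 bp in Neto2 belong to transcripts that the annotation does not mark as basic.

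Grik2 had 4 open starts of 9, in 2 clusters. The outer cluster, at 0 and 12 bp, lay under one shared region of 260 bp with a GC content of 69.2%. This region also lies at the start of Gm48123, an annotated gene on the opposite strand, and an unstranded assay cannot assign it to either. The inner cluster, at 5357 and 5507 bp, had 2 peaks in replicate 1, both of signal 1.45, and 1 peak of signal 0.855 in replicate 2. The shared region there covered 350 bp and was centred 5837 bp inside the gene, downstream of both starts. The 5 other Grik2 starts, 253413 to 684835 bp inside the gene, had no peak of the shorter list. None of these 5 belongs to a transcript that the annotation marks as basic, whereas all 4 open starts do.

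**Figure D2:**
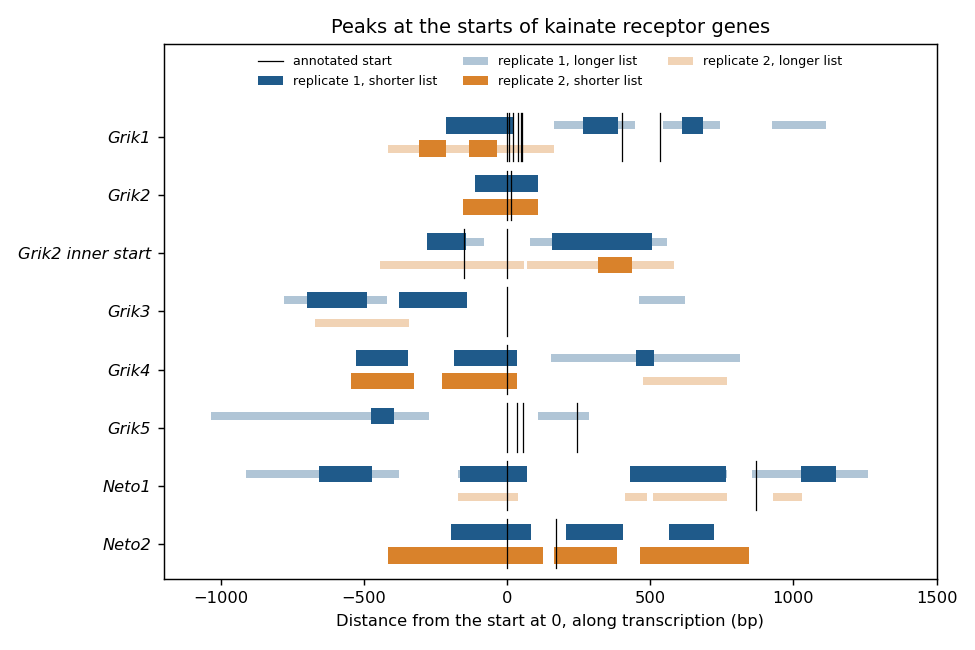
Peaks of the shorter lists (tall bars) and longer lists (short pale bars) of replicate 1 and replicate 2 around the outermost start of each gene, with a further row for the inner starts of Grik2; the x axis is the distance along transcription in bp and thin lines are annotated starts. At Grik3, Grik5 and Neto1 only replicate 1 has tall bars, and at Grik5 replicate 2 has no bar at all.

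The promoter windows held 14 footprints that both libraries called, out of 59 in replicate 1 and 32 in replicate 2. Footprints counted as shared where they overlapped by at least 50% of the shorter one. Grik4 had 6, Grik2 had 5, Neto2 had 2, Neto1 had 1, and Grik1, Grik3 and Grik5 had 0. Counts over the promoters of other genes are not given here, so these have no background. All 6 of Grik4 lay in the printed region 328 to 547 bp upstream of its start, and the region over the start itself, with signals of 3.49 and 1.09, had 0. Of the 5 in Grik2, the 12 bp footprint 46 to 57 bp upstream of the outer start is the one in capitals in the printed sequence. The Neto2 footprints, 10 and 8 bp wide, lay 40 to 49 and 97 to 104 bp upstream of its outermost start. The deposited footprints share one FDR threshold of 0.01 and were not ranked.

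The base composition of the promoters split the genes in another way. The CpG observed-to-expected ratio over 1000 bp around the outermost start was 0.930 for Grik3, 0.892 for Grik4 and 0.940 for Neto2. These 3 lay in the highest of 10 equal groups of protein-coding genes, of which 91.9% were open in both libraries. Grik1 at 0.598, Grik2 at 0.620 and Neto1 at 0.602 lay in group 6, of which 73.6% were open. Grik5 at 0.392 lay in group 4, of which 29.6% were open. Grik3 was thus not called open in both libraries although most genes of like CpG content were.

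Outside promoters, the 7 genes with 50 kb on either side held 25 distal regions, each a set of overlapping peaks of both libraries outside every annotated promoter window. They were part of 37 shared regions, of which 8 lay at the genes' own promoters and 4 at promoters of neighbours. Of the 25, 17 lay in introns, 2 overlapped exons and 6 lay in the flanks. Grik4 had 9, Grik3 had 5, Grik5 had 4, Neto2 had 3, Grik1 and Neto1 had 2 each, and Grik2 had 0. Grik2 was both the longest gene, at 694 kb, and the only one with none, and its promoter peaks were its only shared regions.

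Per 100 kb the order changed, because the genes run from 62.5 kb for Grik5 to 694 kb for Grik2. Grik5 had 2.46 distal regions per 100 kb, Neto2 1.83, Grik4 1.71, Grik3 1.55, Neto1 0.944, Grik1 0.405 and Grik2 0. The median over all protein-coding genes was 0.956, with quartiles of 0 and 1.94. Since long genes differ from short ones, the 2492 genes over 100 kb give a closer background, with a median of 0.892 and quartiles of 0.430 and 1.46. Grik4 and Grik3 stood at percentiles 81.7 and 78.2 of these long genes, above the upper quartile. Grik1 stood at percentile 22.4, below the lower quartile, and Neto1 at percentile 54.1. Of the long genes, 10.7% had no distal region, as Grik2 had none. With the longer peak lists Grik2 had 1 distal region and the 7 genes had 47. Counted in replicate 2 alone Grik2 had 4 distal regions, and in replicate 1 alone it had 1. Grik5 had 13 in replicate 1 alone, 4 in replicate 2 alone and 2 in its gene body without the flanks.

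**Figure D3:**
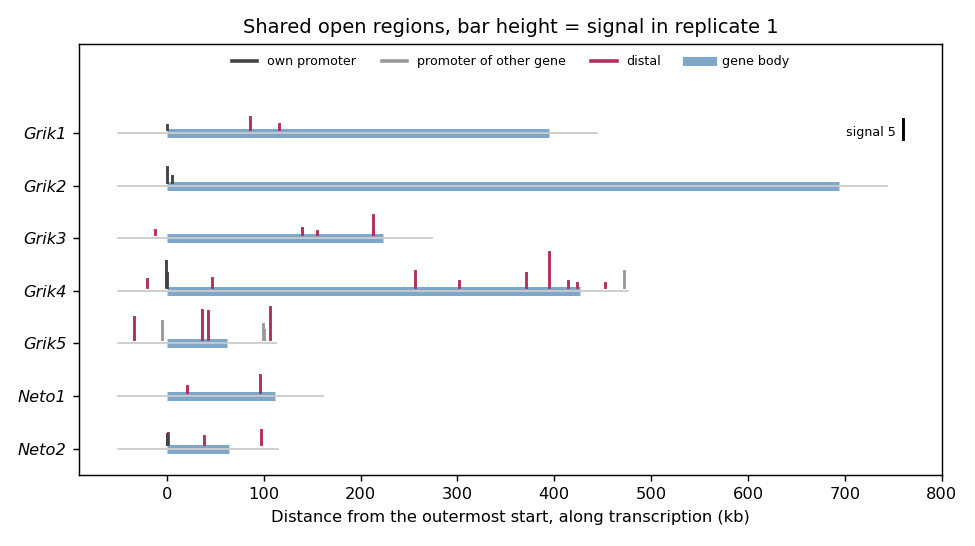
Shared open regions along each kainate receptor gene with 50 kb on either side; the x axis is the distance from the outermost start along transcription in kb, and bar height is the signal in replicate 1, with a bar of signal 5 for scale. Grik4 carries 9 distal regions spread over its body and flanks, and Grik2 carries none shared by both libraries over 694 kb.

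Among the low-affinity subunits, Grik3 had the strongest distal region. It lay in intron 13, 212 kb inside the gene, with signals of 4.93 in replicate 1 and 1.67 in replicate 2 and 3 shared footprints. A weaker region, of 1.04 and 0.825, lay next to it in the same intron, and one of 1.16 and 0.878 lay 12.5 kb upstream of the gene. Both Grik1 regions lay in intron 1. The one 85.7 kb inside the gene had signals of 3.13 and 0.938, and the one 116 kb inside had 1.32 and 0.795. Each of these was stronger in both libraries than the promoter region of Grik1, at 0.978 and 0.435.

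Grik4 held the region with the highest replicate 1 signal of the 25. It lay 394 kb inside the gene over exon 15 of 21, with signals of 8.89 in replicate 1 and 1.46 in replicate 2 and 3 shared footprints. It covered 54 coding bases, at the 5′ end of the printed sequence, and the rest lay in the next intron. Its signal in replicate 1 was above that of the Grik4 promoter, 6.47, and in replicate 2 below it, 1.66. The next Grik4 regions by mean rank lay in intron 13, with 3.43 and 1.09, and in intron 3, with 4.04 and 0.765. A wider region of 505 bp lay wholly in exon 21, the last one, over 293 coding bases and part of the 3′ untranslated region, with 1.03 and 0.615 and no shared footprint.

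All 4 distal regions around Grik5 were strong, although its promoter was not. A pair lay in intron 12, 36.2 and 42.1 kb inside the gene. The nearer one had signals of 7.49 in replicate 1 and 1.41 in replicate 2 with 4 shared footprints. The farther one had 7.26 and 1.31 with 3 shared footprints. The remaining regions lay in the flanks, one at 8.26 and 1.84 in the body of no protein-coding or long non-coding gene and one at 5.60 and 1.52 inside the neighbour Pou2f2. All 4 were stronger in replicate 1 than the Grik5 promoter peak of 1.10. The 3 other shared regions near Grik5 were promoters of its neighbours, 2 at Rabac1 and 1 at Zfp574. Their replicate 1 signals were 2.44, 3.98 and 4.67, and their replicate 2 signals were 1.43, 2.32 and 2.71.

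The auxiliary genes had 5 distal regions between them. Neto1 had one in intron 7, 95.9 kb inside the gene, with signals of 4.21 in replicate 1 and 1.03 in replicate 2, and one in intron 4, with 1.54 and 1.02. Both held 2 shared footprints and were stronger in replicate 1 than the Neto1 promoter peak of 1.43. Neto2 had one in intron 1, 1.67 kb inside the gene, with 2.84 and 1.28, one in intron 6 with 2.01 and 0.593, and one beyond its 3′ end with 3.75 and 0.968. Near Grik4, the only region at another gene's promoter was that of Tbcel, at 3.96 and 1.51.

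As a group the 25 distal regions were close to distal regions elsewhere. Their signals had medians of 2.29 in replicate 1 and 0.938 in replicate 2. Over all 21815 distal regions the medians were 1.98 and 0.855. A shared footprint lay in 22 of the 25, against 81.1% of all. Their median width was 200 bp, as over all, and their median GC content was 52.5%, against 51.0% over all. In 11 of the 25 the signal was above the median of all distal regions in both libraries, against 38.5% of all.

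Every one of the 25 had a higher signal in replicate 1 than in replicate 2, as did 94.9% of all distal regions. The median ratio of replicate 1 to replicate 2 was 3.15 over the 25, against 2.34 over all distal regions. The highest ratio was 6.08 at the exon 15 region of Grik4, followed by 5.53 and 5.31 at the pair in intron 12 of Grik5. The lowest was 1.26 at the weaker region in intron 13 of Grik3. At the 8 shared promoter regions, those of Grik1, Grik2, Grik4 and Neto2, the ratio ran from 1.40 to 4.66, both at Neto2. Grik3, Grik5 and Neto1 had no shared promoter region and so no ratio.

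**Figure D4:**
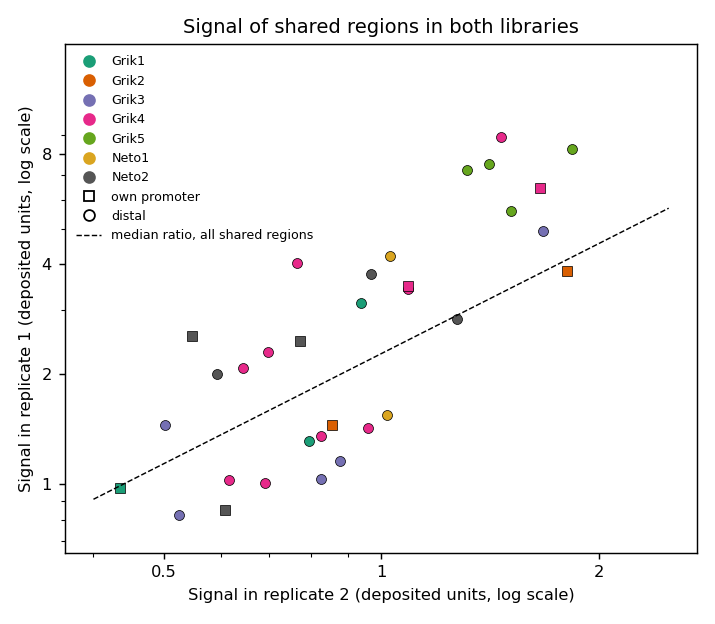
Signal in replicate 1 (y axis, log scale) against signal in replicate 2 (x axis, log scale), both in deposited units, of the shared regions at the genes' own promoters (squares) and the 25 distal regions (circles), coloured by gene. The dashed line is the median ratio over all shared regions, 2.28. The exon 15 region of Grik4 lies farthest above it. All 4 Grik5 regions lie above it, as do other regions, such as those of Grik4 at 5.28, Neto2 at 4.66 and Neto1 at 4.1.

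The share of peaks found by each library also differed between the genes. Over the 7 genes with their flanks, replicate 1 had 73 peaks and replicate 2 had 48. Of these, 39 (53.4%) of the replicate 1 peaks and 38 (79.2%) of the replicate 2 peaks overlapped a peak of the other library, against 62.9% and 76.0% of all peaks. Around Grik5 replicate 1 had 22 peaks and replicate 2 had 7, and around Neto1 they had 7 and 2. Around Grik3 they had 10 and 5. Around Grik2 and Neto2 the balance was the other way, though on few peaks, with 4 and 6 around Grik2 and 6 and 7 around Neto2. Replicate 1 held 75.9% of the peaks around Grik5, 66.7% around Grik3, 46.2% around Neto2 and 40% around Grik2. Over 12341 protein-coding genes with at least 10 peaks the median was 56.3%, with quartiles of 50% and 61.5%. Grik4, with 17 and 16 peaks, and Grik1, with 7 and 5, lay between these quartiles.

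Short sequence motifs were searched on both strands in the central 200 bp of each region, with the regions on chromosome 18, those of Neto1, left out. The E-box CAGCTG, a motif bound by basic helix-loop-helix factors, occurred in 7 of 23 distal regions, against 17.5% of all distal regions. The E-box CAGATG occurred in 6 of 23, against 24.5% of all. The SP and KLF motif GGGGCGGGG occurred in 2 of 23, against 1.62%, and in 0 of 8 promoter regions, against 15.2% of promoter regions. TGANTCA, the AP-1 motif, and GGACAGNGC, part of the REST motif, each occurred in 1 of 23 distal regions, against 6.89% and 1.06% of all. TGACGTCA (CRE), TATTTNTAG (MEF2), GCGTGGGCG (EGR), GCGCATGCG (NRF1), GTTGCCATG (RFX) and AGGGGGCGC (part of the CTCF motif) occurred in 0 of 23. Of the 8 promoter regions, AGGGGGCGC and CAGCTG each occurred in 1, against 2.64% and 11.6% of all promoter regions. The other motifs occurred in 0 of 8. The letters of none of the motifs are contained in another. In the exon 15 region of Grik4, CAGCTG lay wholly in a shared footprint in the coding part and stands in capitals in the printed sequence. GGGGCGGGG lay in the intron there, with 4 of its 9 bases in a shared footprint. CAGATG lay wholly in a shared footprint in intron 8 of Grik4, and with 4 and 2 of its 6 bases in intron 19 of Grik4 and in the flank of Grik3. A match is a match of letters and does not show that a factor was bound.

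A longer consensus for CTCF, a factor that binds at chromatin loop anchors, was added after the values had been seen. It matched 3 of 23 distal regions, against 24.7% of all. A sequence that departs from the consensus counted as no match, so regions without a match may still hold CTCF sites. The matches lay in intron 13 of Grik4, in the nearer of the pair in intron 12 of Grik5 and in intron 13 of Grik3. The Grik3 match lay in the weaker region of that intron, which is not printed. Those of Grik4 and Grik5 lay inside a shared footprint. Over all distal regions the median ratio of replicate 1 to replicate 2 was 3.67 with the consensus and 2.00 without it. Over those of the kainate receptor genes it was 3.15 with and 3.08 without. The 3 regions with the consensus had ratios of 1.26, 3.15 and 5.31, too few and too spread to compare these medians.

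The other ionotropic glutamate receptor genes were given by family. Of the AMPA receptor subunits, the main fast excitatory channels, 3 of 4 had a promoter peak in both libraries, and Gria3 had one in replicate 2 alone, of 0.413. The highest was Gria2, at 4.10 in replicate 1 and 1.84 in replicate 2. Of the NMDA receptor subunits 4 of 7 were open in both, and Grin2c, Grin2d and Grin3b in neither. The highest was the obligatory subunit Grin1, at 3.38 and 1.39, and the lowest of the open ones was Grin3a, at 2.10 and 0.968. Of the delta receptor genes, Grid1 was open in both libraries, at 1.24 and 0.675. All these shares are to be read against the background of 54.2% open in both libraries. As 54.8% of all genes had a replicate 2 peak, few had one in replicate 2 alone, as Gria3 did. The kainate receptor genes held both the highest replicate 1 value of the receptor genes given here, that of Grik4, and the lowest of those open in both libraries, that of Grik1. In replicate 2 the highest was Gria2 at 1.84, above Grik2 at 1.81 and Grik4 at 1.66. The replicate 1 value of Grik4, 6.47, fell to 3.49 with a promoter window of 250 bp, for which the other families are not given.

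Of 20 genes listed as partners and regulators of kainate receptors, 19 could be matched and 18 of these were open in both libraries, against 54.2% of all protein-coding genes. The exception was Dlg4, a postsynaptic scaffold gene, with 2.05 in replicate 1 and no peak in replicate 2. The highest was Pick1, which encodes a PDZ protein that binds receptor tails, at 10.8 in replicate 1 and 3.76 in replicate 2. The lowest was Grip1, another PDZ protein gene, at 0.882 and 0.525. The list holds many widely expressed genes.

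**Figure D5:**
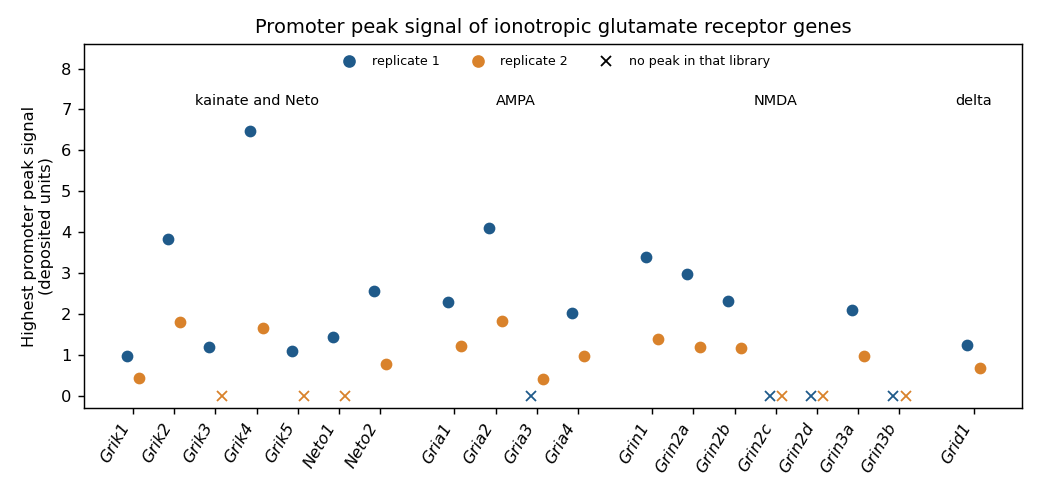
Highest promoter peak signal (deposited units, y axis) of the kainate receptor and Neto genes and of AMPA, NMDA and delta receptor genes (x axis) in replicate 1 and replicate 2, with crosses at 0 where a library had no peak in its shorter list. Grik4 is the highest in replicate 1 at 6.47 and Gria2 in replicate 2 at 1.84. Grin2c, Grin2d and Grin3b have crosses in both libraries.

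The labelled tissue was checked against marker genes, whose counts stand beside the 54.2% of all genes open in both libraries and the 6.00% with a peak in replicate 1 alone. A replicate 2 peak was found at 54.8% of all genes, so few genes had one in replicate 2 alone. Of 8 markers of excitatory hippocampal neurons 6 were open in both libraries, with Slc17a7 open in replicate 1 alone and Prox1 in replicate 2 alone. Of 5 interneuron markers 0 were open in both, and Pvalb had a peak in replicate 1. Of 4 astrocyte markers 1 was open in both, Gfap, at 6.85 in replicate 1 and 1.58 in replicate 2, and Aldh1l1 and Slc1a3 had a peak in replicate 1 alone. Markers of oligodendrocytes (4), microglia (3), vessels (3), hindbrain (3) and other organs (3) were open in both libraries at 0 genes, and Mbp and Hoxb5 had a peak in replicate 1 alone. Promoter peaks in replicate 1 alone were therefore also seen at genes of other cell types, and their part in the peaks of Grik3, Grik5 and Neto1 was not tested.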

How the data were processed

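DNase-seq was deposited for 2 libraries of 1 group. Per library the authors deposited 2 peak lists, a footprint list and a table of FDR per base, each made from that library alone. Peaks carry a signal value, deposited with no stated scaling. The p-value type columns, deposited as the FDR of the cut rate and of footprints, bound the longer peak list at 0.05, the shorter at 0.001 and footprints at 0.01, as found in the files around the members. Coordinates are on mm10, per the labels. Aligner and peak caller were not stated in the sources used here, and depth is unknown, so no counting interval is given.

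Peaks were joined to GENCODE M21 starts with Python 3.11.15, pandas 2.3.3 and numpy 2.4.6, and sequence was read with pysam 0.24.0. Peaks that overlapped by 1 bp or more were merged, and merged regions with a peak of each library were called shared. Joins were tested on simulated data. No test was run, since 1 group of 2 libraries gives no contrast. Named genes were all 7 members, neighbours with a shared region within 500 bp of a start, the 3 strongest distal regions of each member and extremes of the lists. No likeness of pattern between genes can be measured over 2 libraries. The members, gene lists and motifs (11) were chosen with earlier results of these data known. Some listed genes are not reported here.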

Additional observations from a re-analysis of the deposited data

How the results depend on the processing

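Of the 4 summary results, the share of all protein-coding genes with an open promoter stayed within 1.5 times of 54.2% under all 9 alternatives run, from 47.1% to 60.2%. The count of 4 open kainate receptor genes was 2 with the stronger 50% of peaks (Grik2 and Grik4) and ranged from 4 to 7 when either library was used alone. The count of 25 distal regions was 47 with the longer peak lists and 12 with the stronger 50% of peaks, and ranged from 35 to 45 in single libraries. Per gene it moved by over 1.5 times under 16 gene and setting pairs and by no more than that under 40. Examples are Grik2 with 4 in replicate 2 alone and Grik5 with 13 in replicate 1 alone. The count of 14 shared promoter footprints was 7 with a promoter window of 250 bp, and ranged from 32 to 59 in single libraries, where no sharing is required. Counting only peaks of both libraries that overlap by 1 bp, an alternative chosen after seeing the data, left 4 open genes and 54.1% of all genes. No paired analysis was possible because the libraries form 1 group, so no groups could be compared. Depth is unknown, so a promoter without a peak is not shown to be closed, and the scaling of the signal may differ between libraries.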
